A study of Neurospora crassa with 20 samples.

Results

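In Neurospora crassa grown in the dark, 238 of 4449 H3K4me3 peaks bordered a long H3K9me3 domain. These bordering peaks were defined by the measured peak positions of 2 lists from the wild type (WT) in the dark. A peak was included when its summit, the most enriched base, lay outside and within 5 kb of an edge of an H3K9me3 peak of at least 5 kb, called a long domain here. Another 4196 peaks had their summit farther away, 14 had it inside a long domain, and 1 lay on a supercontig without such a domain. H3K9me3 and H3K4me3 had been measured by ChIP-seq, in which chromatin fragments that carry a mark are recovered with an antibody and sequenced. The H3K4me3 lists came from Δkmt1/Δdim-5 and WT mycelia, and the H3K9me3 lists from Δkmt2/Δset-1 and WT mycelia. Each strain was grown for 24 h in the light and then 24 h in constant dark (DD), or was given 30 min of light at the end of the dark (LP30). The series holds 20 samples in 10 conditions with 2 replicates each, at a stated depth of 50 M reads of 50 bp. Δkmt1/Δdim-5 lacks the H3K9 methyltransferase and Δkmt2/Δset-1 the H3K4 methyltransferase; both deletions had been backcrossed to the WT strain used. All 4 H3K9me3 lists used the H3K9me3 ChIP of Δkmt1/Δdim-5 in DD as control, and all 4 H3K4me3 lists used the H3K4me3 ChIP of Δkmt2/Δset-1. Lists of a mark thus share their control, and neither mark has a list for the strain that lacks it. Each list pools both replicates of its condition, so conditions could not be tested against a spread between replicates. Differences are given as counts beside those of the other WT DD peaks.

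H3K4me3 is set by the SET-1 complex on nucleosomes near the start of transcribed genes. In Neurospora, H3K9me3 is set by DIM-5 on A:T-rich relics of repeat-induced point mutation, where the heterochromatin protein HP1 binds it and directs DNA methylation by DIM-2. Genes next to such domains sit where a mark of transcribed chromatin meets a mark of silent chromatin, so each deletion asks what happens to one mark at the border when the other is gone.

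The 246 long domains of WT DD had a median length of 15357 bp and covered 6.97 Mb. On the 7 chromosomes they had 468 edges, of which 199 (42.5%) had at least 1 bordering H3K4me3 peak. A single bordering peak lay at 157 edges, 2 lay at 39 and 3 lay at 3. Both edges were bordered at 55 domains, 1 edge at 89 and neither at 90. The summits lay at a median of 2046 bp from the domain, with quartiles of 917 and 3232 bp, and the nearest lay 31 bp away. Of the 238 peaks, 18 overlapped their domain by at most 340 bp, and a further 52 began within 500 bp of it. Chromosome I held 54, II 31, III 33, IV 29, V 35, VI 18, VII 37 and a minor supercontig 1.

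The change in H3K4me3 density at the edge was steep in every list. In the 5 kb inside the edges there were 1.16 summits per 100 kb in both Δkmt1/Δdim-5 lists, 0.603 in WT LP30 and 0.371 in WT DD. In the 5 kb outside there were 12.3 in Δkmt1/Δdim-5 DD, 12.1 in Δkmt1/Δdim-5 LP30, 11.3 in WT LP30 and 11.0 in WT DD. Farther out, at 10 to 20 kb, the densities were 11.2, 11.4, 10.5 and 10.3 in the same order. The border zone of WT DD thus held H3K4me3 summits at about the density found farther out. In WT DD the same positions chose the bordering peaks, so its densities are a description only.

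**Figure D1:**
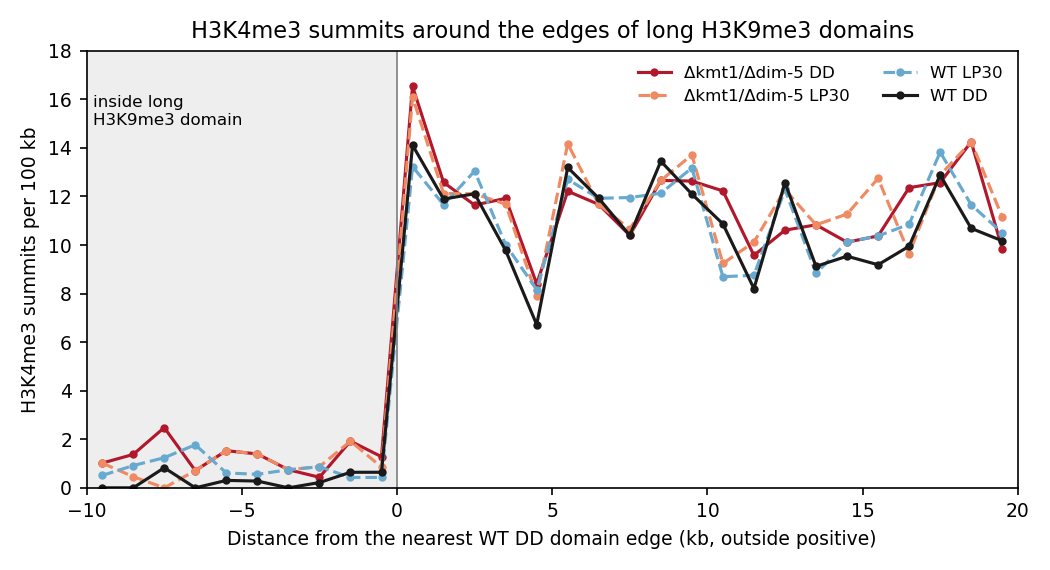
H3K4me3 summits per 100 kb (vertical axis) in bins of 1 kb by distance from the nearest WT DD domain edge (horizontal axis, inside negative), for Δkmt1/Δdim-5 DD, Δkmt1/Δdim-5 LP30, WT LP30 and WT DD. Summits were rare inside the domains in all 4 lists, and in the first 1 kb outside the density was 16.5 in Δkmt1/Δdim-5 DD and 14.1 in WT DD.

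Fold enrichment, the authors' ratio of ChIP to control at the summit, had a median of 1.66 in the bordering peaks of WT DD and of 1.74 in the peaks farther away. It ranged between 1.08 and 2.50 in the bordering peaks. The median rank of a bordering peak was at 41.1% of the WT DD list, where 0 is the weakest and 100 the strongest. Their median width was 1391.5 bp, against 1439 bp farther away. A q-value under 0.01 was reached by 213 of the 238 (89.5%) and by 94.3% of the others. The control pileup, the scaled number of control fragments that the peak caller used at the summit, was recovered from fold enrichment and p. Its median was 222 fragments in the bordering peaks and 221 in the others. The median ChIP pileup was 394 fragments in the bordering peaks and 400 in the others. A higher fold enrichment did not always go with more ChIP fragments. The peak in NCU02114, with a fold of 2.50, had 396 ChIP and 158 control fragments. The peak in NCU09900, with a fold of 1.38, had 414 and 301. The bordering peak with the most ChIP fragments, 432, had 395 control fragments and a fold of only 1.09. Weak, strong and most enriched refer here to fold enrichment, which depends on both pileups, and not to the amount of H3K4me3 alone. Classes and ranks by fold enrichment thus also sort peaks by their control pileup.

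The summit lay in the span of an annotated gene in 231 of 237 bordering peaks on the chromosomes (97.5%) and in 98.1% of the peaks farther away. They marked 223 different genes, and 36 of them lay in a gene whose span reached into the domain. The annotation used gives no strand, exons or UTRs, so a position within the gene is not stated. Gene names here are NC12 locus tags or symbols.

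At the thresholds of the rule, the outermost bordering peak lay in NCU00172 on chromosome III (2895226 to 2896514) with its summit 4975 bp from the domain and a fold enrichment of 1.58. The first peak outside the limit, in NCU10035 on chromosome II (3360986 to 3361886), had its summit at 5014 bp and a fold enrichment of 1.58. The shortest long domain had 5028 bp, a mean fold enrichment of 1.93 and 1 summit within 5 kb. The longest H3K9me3 peak under the limit had 4955 bp, a mean fold enrichment of 1.12 and no summit within 5 kb.

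In Δkmt1/Δdim-5, which lacks the H3K9 methyltransferase, bordering H3K4me3 peaks were missing more often than peaks elsewhere. In Δkmt1/Δdim-5 DD, 44 of the 238 (18.5%) had no overlapping peak, against 4.59% of all 4449 WT DD peaks and 3.60% of those farther than 5 kb. In Δkmt1/Δdim-5 LP30, 39 (16.4%) had none, against 4.27% of all peaks and 3.34% farther away. In WT LP30, 12 (5.04%) had none, against 3.06% of all peaks and 2.88% farther away. Exact binomial 95% intervals of the shares, which treat peaks as independent and cover counting error only, were 13.8% to 24.0% for the bordering peaks in Δkmt1/Δdim-5 DD and 3.06% to 4.21% for the peaks farther away. In WT LP30 these intervals were 2.63% to 8.64% and 2.40% to 3.44%, and so overlapped. Where a peak is missing, the enrichment stayed under the limit of the peak caller, and some mark may still be there.

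Most missing peaks were missing from both Δkmt1/Δdim-5 lists. Of the bordering peaks, 37 were missing from both, 7 from Δkmt1/Δdim-5 DD alone of the pair and 2 from Δkmt1/Δdim-5 LP30 alone. Of the 37, 27 were present in WT LP30. Only 10 were missing from all 3 other lists, and 192 (80.7%) were present in all 3. None was missing from WT LP30 alone. The 44 peaks missing from Δkmt1/Δdim-5 DD lay next to 37 of the 144 domains that had bordering peaks, and at 12 domains no bordering peak was found in Δkmt1/Δdim-5 DD. Chromosome VII held 9 of the 44, II and III 8 each, IV 6, I and V 5 each, VI 2 and the minor supercontig 1.

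The share of missing peaks was highest next to the domain. In Δkmt1/Δdim-5 DD it was 28.1% of 64 peaks with the summit within 1 kb, 23.1% of 52 at 1 to 2 kb, 11.5% of 52 at 2 to 3 kb, 14.3% of 42 at 3 to 4 kb and 7.14% of 28 at 4 to 5 kb. Beyond the limit of the rule it was 7.17% of 237 peaks at 5 to 10 kb, 4.87% of 349 at 10 to 20 kb and 3.24% of 3610 farther out. Δkmt1/Δdim-5 LP30 gave 29.7%, 17.3%, 9.62%, 11.9% and 3.57% in the same 5 bins within 5 kb. WT LP30 gave 7.81%, 5.77%, 3.85%, 2.38% and 3.57%. The first bin thus had the highest share in all 3 lists, and WT LP30 was lower there than either Δkmt1/Δdim-5 list. Among peaks with a q-value under 0.01 in WT DD, the first bin had 13 of 58 missing (22.4%) in Δkmt1/Δdim-5 DD and 2 of 58 (3.45%) in WT LP30.

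**Figure D2:**
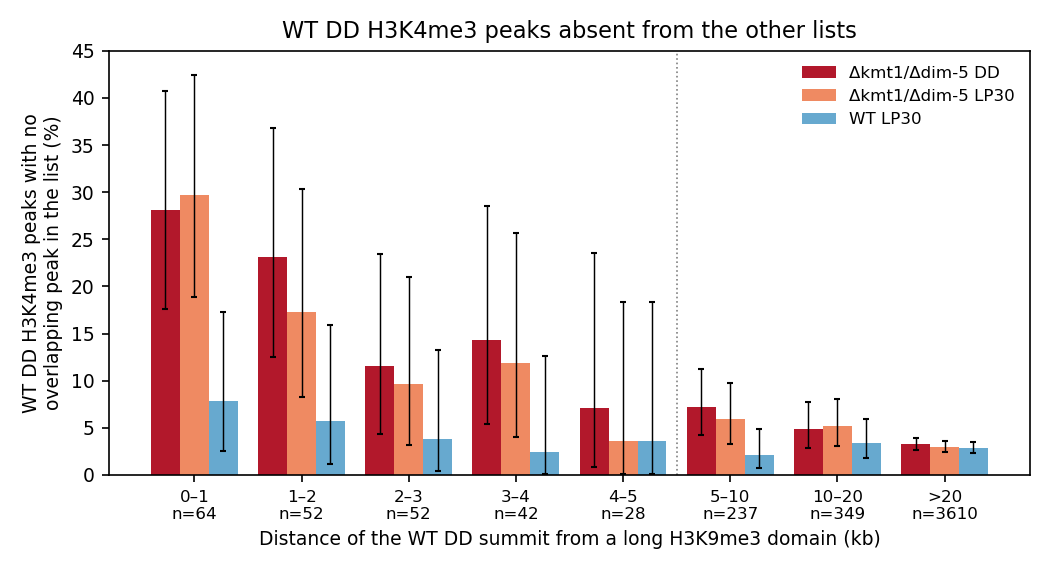
Percent of WT DD H3K4me3 peaks with no overlapping peak (vertical axis) in Δkmt1/Δdim-5 DD, Δkmt1/Δdim-5 LP30 and WT LP30, by distance of the summit from the nearest long domain in kb (horizontal axis). Bars are shares of the n peaks under each bin and lines their exact binomial 95% intervals; left of the dotted line are the bordering peaks, with 28.1% missing from Δkmt1/Δdim-5 DD within 1 kb and 3.24% beyond 20 kb.

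Peaks of low fold enrichment were missing most often, and bordering peaks include more of them. All WT DD H3K4me3 peaks were therefore divided into 4 classes of equal size by fold enrichment. In the weakest class, up to a fold of 1.51, 37 of 85 bordering peaks (43.5%) were missing from Δkmt1/Δdim-5 DD, against 14.2% of 1020 peaks farther away. In the next class 5 of 56 (8.93%) were missing, against 0.379%. In the class above it 2 of 52 (3.85%) were missing, against 0.189%. In the strongest class, above a fold of 1.92, none of 45 bordering peaks and none of 1063 others were missing. In WT LP30, 12 of the 85 weakest bordering peaks (14.1%) were missing, against 11.9% of the weakest peaks farther away, and none of the stronger ones in either group.

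The length of the neighbouring domain was also compared. In Δkmt1/Δdim-5 DD, peaks were missing at 11 of 31 positions next to domains of 50 kb or more (35.5%), at 13 of 77 next to domains of 20 to 50 kb (16.9%), at 15 of 92 for 10 to 20 kb (16.3%) and at 5 of 38 for shorter ones (13.2%). A second long domain on the other side of the summit was within 20 kb for 33 bordering peaks, of which 9 (27.3%) were missing. Where it was at 20 to 50 kb, 11 of 45 (24.4%) were missing, and where it was farther or there was none, 24 of 160 (15%). Of all WT DD peaks, 4.59% were missing from Δkmt1/Δdim-5 DD. In WT LP30 the shares by second domain also fell, with 3 of 33 (9.09%), 4 of 45 (8.89%) and 5 of 160 (3.13%) missing. By domain length, from the longest class to the shortest, WT LP30 gave 3.23%, 7.79%, 3.26% and 5.26%.

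The 10 most enriched bordering peaks with no overlap in Δkmt1/Δdim-5 DD had fold enrichments of 1.46 to 1.83 in WT DD and 1.39 to 1.86 in WT LP30, where all 10 were present. In Δkmt1/Δdim-5 LP30, 4 had a peak, with fold enrichments of 1.11 to 1.17, and 6 had none. The strongest lay in NCU02450 on chromosome VII (2132873 to 2134532), with its summit 1462 bp from a domain of 348 kb. Its fold enrichment was 1.12 in Δkmt1/Δdim-5 LP30, 1.86 in WT LP30 and 1.83 in WT DD. In the pooled WT DD list 352 ChIP fragments lay over its summit. The 95% Poisson interval, 316 to 391, covers counting error only and not the spread between replicates. The neighbouring gene NCU02451 held another of these peaks, with 1.16 in Δkmt1/Δdim-5 LP30, 1.46 in WT LP30 and 1.53 in WT DD. NCU02428 and NCU02432, also on chromosome VII, had no peak in either Δkmt1/Δdim-5 list. Their fold enrichments were 1.63 and 1.54 in WT LP30, and 1.73 and 1.51 in WT DD. On chromosome I, NCU08594 had none in either Δkmt1/Δdim-5 list, 1.63 in WT LP30 and 1.76 in WT DD, and its peak overlapped a domain of 33.6 kb by 145 bp. NCU09994 on the same chromosome had 1.11 in Δkmt1/Δdim-5 LP30, 1.67 in WT LP30 and 1.69 in WT DD. NCU09858 on chromosome V, NCU10430 on II and NCU07891 on IV had no peak in either Δkmt1/Δdim-5 list. In WT LP30 they had 1.53, 1.63 and 1.39, and in WT DD 1.71, 1.70 and 1.46. NCU10059 on chromosome I had 1.17 in Δkmt1/Δdim-5 LP30, 1.43 in WT LP30 and 1.47 in WT DD.

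Of the bordering peaks, 194 had a counterpart in Δkmt1/Δdim-5 DD, 199 in Δkmt1/Δdim-5 LP30 and 226 in WT LP30. Because the lists were scaled separately and their median fold enrichments differ (1.58 in Δkmt1/Δdim-5 DD and 1.73 in WT DD), ranks within each list were compared. The median change in rank from WT DD was +2.45 percentile points in Δkmt1/Δdim-5 DD, against +4.06 for the peaks farther away. Ranks lower by at least 20 points were found for 29 of the 194 (14.9%) and for 7.96% of the peaks farther away. Ranks higher by at least 20 points were found for 32 (16.5%), against 12.4% farther away. In Δkmt1/Δdim-5 LP30, 19.1% were lower by 20 points, against 9.64% farther away, and 14.6% were higher, against 14.5%. In WT LP30, 6.64% were lower, against 7.56%, and 7.96% were higher, against 8.32%. Rises of at least 20 points were thus more frequent in the Δkmt1/Δdim-5 lists than in WT LP30 both for bordering peaks and for peaks farther away. The bordering peaks differed from those farther away mainly by more frequent drops in the Δkmt1/Δdim-5 lists.

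**Figure D3:**
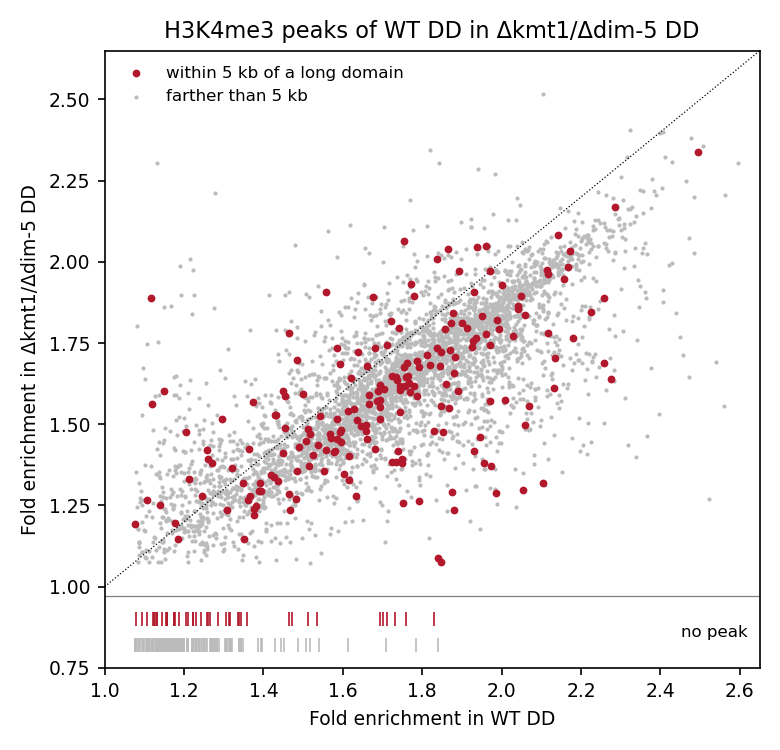
Fold enrichment of each WT DD H3K4me3 peak in Δkmt1/Δdim-5 DD (vertical axis, strongest overlapping peak) against WT DD (horizontal axis), for bordering peaks and peaks farther than 5 kb; the dotted line marks equal values and 5 peaks farther away lie beyond the axes. Ticks under the line are the 44 bordering and 151 other peaks with no overlap, most of them weak in WT DD, and none of the bordering ones above 1.83.

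The 5 largest drops in rank lay mostly against the edge, 4 of them with the summit within 1 kb of the domain, and 3 were on chromosome VII. NCU02433 on chromosome VII (2506815 to 2509014), 599 bp from a domain of 11.8 kb, had fold enrichments of 1.32 in Δkmt1/Δdim-5 DD, 1.24 in Δkmt1/Δdim-5 LP30, 1.63 in WT LP30 and 2.10 in WT DD, and its rank was 20.5 in Δkmt1/Δdim-5 DD, against 92.0 in WT DD. On the other side of the same domain, NCU02434 had 1.29, 1.09, 1.76 and 1.98 in these 4 lists. NCU10058 on chromosome I (3708897 to 3710920), 692 bp from a domain of 8.80 kb, had 1.30 in Δkmt1/Δdim-5 DD, 1.33 in Δkmt1/Δdim-5 LP30, 2.00 in WT LP30 and 2.05 in WT DD. A second summit in NCU10430 had 1.08 in Δkmt1/Δdim-5 DD, 1.21 in Δkmt1/Δdim-5 LP30, 1.76 in WT LP30 and 1.85 in WT DD. NCU06017 on chromosome VII had 1.09, 1.17, 1.69 and 1.84. The choice of these peaks fixed the direction between the DD lists. In the LP30 lists, which it did not use, Δkmt1/Δdim-5 was under WT at all 5.

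The 5 largest gains in rank were less uniform. The peak in ran (NCU09269, chromosome I), which encodes the small GTPase of nuclear transport, had 1.91 in Δkmt1/Δdim-5 DD, 1.85 in Δkmt1/Δdim-5 LP30, 1.96 in WT LP30 and 1.56 in WT DD, so WT DD alone was low. In tob38 (NCU01401, chromosome V), which encodes a subunit of the mitochondrial outer membrane sorting complex, it had 1.78, 1.46, 1.41 and 1.46, so Δkmt1/Δdim-5 DD alone was high. NCU03051 had 1.89, 1.46, 1.56 and 1.68. NCU09904 had 1.60 in Δkmt1/Δdim-5 DD, 1.55 in Δkmt1/Δdim-5 LP30, 1.22 in WT LP30 and 1.15 in WT DD, so that Δkmt1/Δdim-5 was above WT in the LP30 lists as well. A narrow peak in NCU06404 on chromosome IV had 1.89, 1.93, 1.14 and 1.12. There a single Δkmt1/Δdim-5 peak covered this peak and a stronger WT DD peak in the same gene, so the values in Δkmt1/Δdim-5 are those of the joint peak.

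The 10 most enriched bordering peaks were present in all 4 lists. Their fold enrichments were 1.64 to 2.34 in Δkmt1/Δdim-5 DD, 1.70 to 2.35 in Δkmt1/Δdim-5 LP30, 1.51 to 2.33 in WT LP30 and 2.16 to 2.50 in WT DD, the list that chose them. The strongest, in NCU02114 on chromosome I (1232034 to 1236137), had 2.34 in Δkmt1/Δdim-5 DD, 2.35 in Δkmt1/Δdim-5 LP30, 2.33 in WT LP30 and 2.50 in WT DD, and ranked above 99% in Δkmt1/Δdim-5 DD and WT DD. NCU06279 (2.17 in Δkmt1/Δdim-5 DD and 2.28 in WT DD), NCU03591 (2.03 and 2.17), NCU16769 (1.98 and 2.17) and NCU02464 (1.95 and 2.16) kept a rank within 2 points of that in WT DD. NCU09228 on chromosome I had 1.64 in Δkmt1/Δdim-5 DD, 1.77 in Δkmt1/Δdim-5 LP30, 2.18 in WT LP30 and 2.28 in WT DD. NCU05338 on chromosome II, next to a domain of 272 kb, had 1.69, 1.79, 2.16 and 2.26. Both of these ranked over 30 points lower in Δkmt1/Δdim-5 DD than in WT DD. In leu-6 (NCU09463), which encodes a leucyl-tRNA synthetase, the peak had 1.77, 2.06, 2.05 and 2.18. NCU07814 on chromosome V had 1.85, 1.70, 1.51 and 2.23, and the joint peak of NCU06404 had 1.89, 1.93, 1.95 and 2.26.

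The median displacement of the ends of the surviving peaks was small, but larger displacements were found in both directions. In Δkmt1/Δdim-5 DD the end that faced the domain lay a median of 17.5 bp farther from the domain than in WT DD (-17.5 bp outward from the middle of the peak), and the far end -0.5 bp. Peaks farther away had medians of 0 and 2 bp. In Δkmt1/Δdim-5 LP30 the medians were -11 bp at the near end and 3 bp at the far end, against 8 and 8 bp farther away. In WT LP30 they were -10 and -2 bp, against -8 and -8 bp. In Δkmt1/Δdim-5 DD the near end drew back by over 200 bp in 14 of 194 bordering peaks (7.22%), against 2.40% of the peaks farther away, and the far end in 21 (10.8%), against 2.20%. The near end extended toward the domain by over 200 bp in another 14, against 9.49% farther away, and the far end extended outward by as much in 27 (13.9%), against 11.1%. In Δkmt1/Δdim-5 LP30 the near end drew back by over 200 bp in 13 of 199 bordering peaks (6.53%), against 1.70% farther away, and the far end in 20 (10.1%), against 1.90%. There the near end extended by over 200 bp in 20 (10.1%), against 12.9%, and the far end in 33 (16.6%), against 14.2%.

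Peaks also appeared near the edges. Of 265 peaks of Δkmt1/Δdim-5 DD with the summit within 5 kb outside a long domain on the chromosomes, 61 (23.0%) overlapped no WT DD peak, against 11.9% of all 4815 peaks of that list, and 28 of the 61 had a q-value under 0.01. In Δkmt1/Δdim-5 LP30 they were 57 of 260 (21.9%), against 12.3%, and in WT LP30 11 of 243 (4.53%), against 4.05%. Within 5 kb inside the edges there were 25 summits in Δkmt1/Δdim-5 DD, 25 in Δkmt1/Δdim-5 LP30, 13 in WT LP30 and 8 in WT DD. Of those in Δkmt1/Δdim-5 DD, 22 overlapped no WT DD peak and 16 of these had a q-value under 0.01. The same held for 21 of the 25 in Δkmt1/Δdim-5 LP30, 12 of them with a q-value under 0.01, and for 7 of the 13 in WT LP30, 3 of them with such a q-value.

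Without the H3K4 methyltransferase, in Δkmt2/Δset-1, H3K9me3 seldom reached the positions of the bordering summits. In Δkmt2/Δset-1 DD, 4 of the 238 summit positions (1.68%) lay in an H3K9me3 peak, against 0.247% of all WT DD summits. In Δkmt2/Δset-1 LP30 there were 2 (0.840%), against 0.202% of all. In WT LP30 there were 3 (1.26%), against 0.562%, and in WT DD 1 (0.420%), against 0.539%. The single WT DD case, in NCU05663, lay in a separate short H3K9me3 peak, since the rule leaves out summits inside long domains. The exact binomial 95% intervals of the bordering peaks were 0.460% to 4.25% in Δkmt2/Δset-1 DD and 0.261% to 3.64% in WT LP30. They treat peaks as independent, cover counting error only and ignore that the same 238 positions were scored in both lists. Their overlap is therefore no test of a difference between the lists. Any base of the H3K4me3 peak lay in H3K9me3 for 18 bordering peaks (7.56%) in Δkmt2/Δset-1 DD, against 0.809% of all. The count was 19 (7.98%) in Δkmt2/Δset-1 LP30, against 0.877%, 22 (9.24%) in WT LP30, against 1.35%, and 21 (8.82%) in WT DD, against 1.3%. The rule chose peaks close to a WT DD domain, and 18 of them overlapped it in WT DD, so nearness alone raises these shares over those of all peaks. The summit shares in the other lists are affected by the same nearness, and only the H3K9me3 lists can be set against each other. By the count of any base, neither Δkmt2/Δset-1 list had more contact with the bordering peaks than the WT lists. H3K9me3 covered the whole H3K4me3 peak for 3 in Δkmt2/Δset-1 DD, 1 in Δkmt2/Δset-1 LP30, 1 in WT LP30 and none in WT DD.

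The summits that Δkmt2/Δset-1 DD H3K9me3 crossed belonged to weak or moderate H3K4me3 peaks, and each was covered by a peak that extended a long domain. At NCU10053 on chromosome VII (1027953 to 1029144), the domain reached 2671 bp beyond its WT DD edge in Δkmt2/Δset-1 DD and passed the far end of the H3K4me3 peak by 1819 bp. There the edge lay 78 bp back in Δkmt2/Δset-1 LP30 and 48 bp back in WT LP30. The H3K4me3 peak, with a fold enrichment of 1.51 in WT DD, overlapped its domain already in WT DD. At NCU04690 on chromosome VI, the nearest gene at 433 bp, the domain extended by 2024 bp in Δkmt2/Δset-1 DD and by 1997 bp in Δkmt2/Δset-1 LP30, and was 265 bp shorter in WT LP30. The H3K4me3 peak there had a fold enrichment of 1.45 in WT DD. At NCU06420 on chromosome III (1346296 to 1347111), with 1.38, the edge moved 1509 bp outward in Δkmt2/Δset-1 DD, 410 bp outward in WT LP30 and 8 bp back in Δkmt2/Δset-1 LP30. At NCU07815 on chromosome III, with 1.13, the edge moved 865 bp outward in Δkmt2/Δset-1 DD, which took it 38 bp past the summit but not past the far end. NCU04690 was therefore the only one crossed in both Δkmt2/Δset-1 lists. The other summit covered in Δkmt2/Δset-1 LP30, in NCU08487 on chromosome II, lay in a separate H3K9me3 peak of 1.08 kb with a mean fold enrichment of 1.10.

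**Figure D4:**
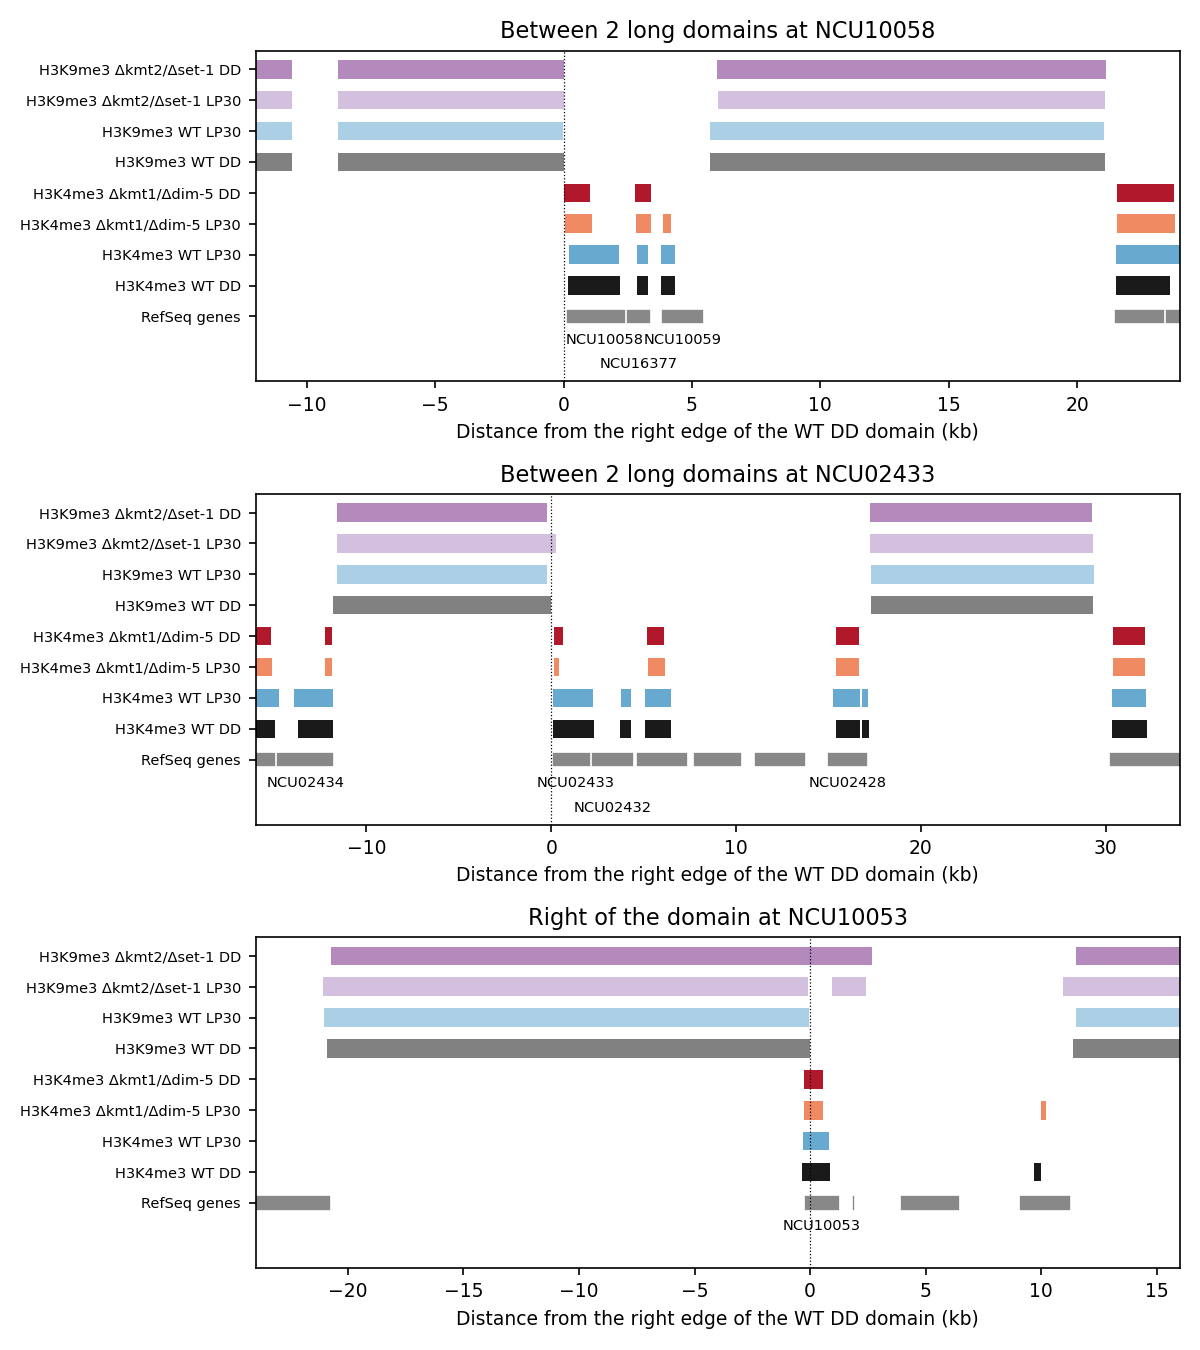
Peaks of the 4 H3K9me3 and 4 H3K4me3 lists and RefSeq genes around NCU10058 (chromosome I), NCU02433 and NCU10053 (both VII), with the horizontal axis in kb from the right edge of the WT DD domain. Boxes span peaks from start to end; in the upper and middle maps several H3K4me3 peaks beside the domains are shorter or missing in Δkmt1/Δdim-5 and the H3K9me3 edges of Δkmt2/Δset-1 lie within 1 kb of those of WT DD, and in the lower map Δkmt2/Δset-1 DD H3K9me3 extends 2671 bp past the edge.

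Most domain edges next to H3K4me3 peaks lay near their WT DD position, as did most other edges. Over the 199 bordered edges the median displacement, outward positive, was 0 bp in Δkmt2/Δset-1 DD, 1 bp in Δkmt2/Δset-1 LP30 and -17 bp in WT LP30. Within 100 bp of the WT DD edge were 70.9% of them in Δkmt2/Δset-1 DD, 71.4% in Δkmt2/Δset-1 LP30 and 80.9% in WT LP30. Over all 468 edges these shares were 63.2% in Δkmt2/Δset-1 DD, 61.3% in Δkmt2/Δset-1 LP30 and 75% in WT LP30. The median displacement of the edges without a bordering peak was 7, 8 and -18 bp in these 3 lists. Among edges with no other H3K9me3 peak within 5 kb, 71.9% of the bordered and 70.7% of the other edges lay within 100 bp in Δkmt2/Δset-1 DD. These shares were 72.4% and 68.0% in Δkmt2/Δset-1 LP30, and 81.6% and 81.2% in WT LP30. Outward displacements over 1 kb were found at 8 bordered edges (4.02%) in Δkmt2/Δset-1 DD, against 12.2% of all 468 edges. In Δkmt2/Δset-1 LP30 there were 4 (2.01%), against 11.8% of all, and in WT LP30 1 (0.503%), against 1.71%. At the 269 edges without a bordering peak the counts were 49 (18.2%), 51 (19.0%) and 7 (2.60%) in these 3 lists.

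Edges without an H3K4me3 peak more often had another H3K9me3 peak nearby. Within 5 kb of the edge there was another WT DD H3K9me3 peak at 14 of the 199 bordered edges and at 88 of the 269 others, and 37 of the 49 large displacements at the other edges in Δkmt2/Δset-1 DD reached the next WT DD peak. With such edges left out, a comparison added after these counts were seen, displacements over 1 kb were found at 7 of 185 bordered edges (3.78%) and at 11 of 181 others (6.08%) in Δkmt2/Δset-1 DD. In Δkmt2/Δset-1 LP30 they were found at 3 (1.62%) and 12 (6.63%), and in WT LP30 at 1 (0.541%) and none. The gap between bordered and other edges was thus narrower in both Δkmt2/Δset-1 lists with such edges left out, but it remained. Whether a second H3K9me3 peak in reach causes the displacements was not tested. Whether the remaining gap exceeds the spread between replicates was not tested either.

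The coverage of bases by H3K9me3 peaks was also lower outside bordered edges than outside the others. In the first 1 kb outside bordered edges, H3K9me3 peaks covered 10.1% of bases in Δkmt2/Δset-1 DD, 8.86% in Δkmt2/Δset-1 LP30, 3.35% in WT LP30 and 0% in WT DD, where the edge is defined. Over the first 5 kb the coverage was 3.91%, 3.83%, 1.81% and 1.00%. Outside edges without a bordering peak it was 21.0%, 20.1%, 7.48% and 9.17% over 5 kb. Because the WT DD edge sets coverage to 0% there, any outward displacement adds coverage in the first 1 kb, also without a net gain. In the first 1 kb inside all 468 edges, coverage was 91.9% in Δkmt2/Δset-1 DD, 92.2% in Δkmt2/Δset-1 LP30 and 89.7% in WT LP30, against 100% in WT DD. The whole H3K9me3 lists also differed in size. They covered 8.35 Mb in Δkmt2/Δset-1 DD, 8.28 Mb in Δkmt2/Δset-1 LP30, 7.53 Mb in WT LP30 and 7.71 Mb in WT DD.

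**Figure D5:**
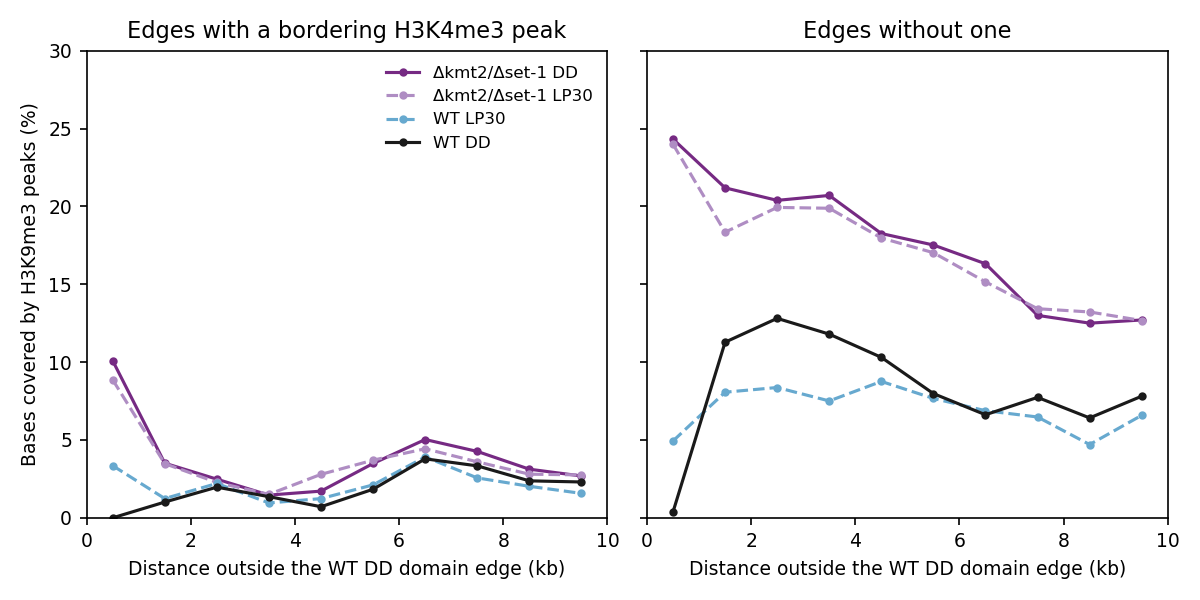
Percent of bases covered by H3K9me3 peaks (vertical axis) in bins of 1 kb outside the WT DD domain edges (horizontal axis, kb), for Δkmt2/Δset-1 DD, Δkmt2/Δset-1 LP30, WT LP30 and WT DD, at edges with a bordering H3K4me3 peak (left) and without one (right). Coverage in Δkmt2/Δset-1 DD was 10.1% in the first bin at bordered edges and 24.3% at the others.

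The place of the edge relative to the nearest H3K4me3 peak changed little. In WT DD the domain stopped short of this peak at 181 of the 199 bordered edges and ran into it, short of the summit, at 18. In Δkmt2/Δset-1 DD it stopped short at 183, ran into the peak short of the summit at 12, passed the summit at 1 and passed the far end at 3. In Δkmt2/Δset-1 LP30 the counts were 183, 15, 0 and 1, and in WT LP30 181, 17, 0 and 1. By the rule every bordering summit lay outside the long domains of WT DD, so no WT DD edge could pass one. For edges past the summit, the Δkmt2/Δset-1 lists can therefore be set against WT LP30 only.

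The largest outward displacements next to bordering peaks in Δkmt2/Δset-1 DD were those at NCU05102 (2700 bp), NCU10053 (2671 bp), NCU04690 (2024 bp), NCU16698 (1586 bp) and NCU06420 (1509 bp). At NCU05102 on chromosome VI the edge also moved by 2256 bp in Δkmt2/Δset-1 LP30 and drew back by 723 bp in WT LP30, and another WT DD H3K9me3 peak lay 1218 bp away. Its H3K4me3 summit, 3875 bp from the domain, was not reached. At NCU16698 on chromosome III the edge moved by 487 bp in Δkmt2/Δset-1 LP30 and drew back by 2111 bp in WT LP30. The largest withdrawal, named after its value was seen, was on chromosome VI next to stk-49 (NCU07062). There the domain of 12.2 kb drew back by 11605 bp in Δkmt2/Δset-1 DD, by 11286 bp in Δkmt2/Δset-1 LP30 and by 14 bp in WT LP30.

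Bordering peaks in genes with a symbol, which are the better studied ones, were missing from Δkmt1/Δdim-5 DD in 3 of 34 cases (8.82%), and the others in 41 of 204. The share was 18.5% of all bordering peaks and 4.59% of all WT DD peaks. Peaks farther away were not divided by symbol, and the 2 groups were not matched for fold enrichment, so no effect of the symbol can be read from these counts. The 3 missing peaks were chosen for mention after their values were seen. The peak in gh61-6 (NCU03328), a gene of a cellulose-degrading enzyme family, had a fold enrichment of 1.15 in WT LP30 and 1.36 in WT DD and no peak in either Δkmt1/Δdim-5 list. The peak in cat-3 (NCU00355), which encodes a secreted catalase, had 1.10 in WT LP30 and 1.26 in WT DD, also with none in Δkmt1/Δdim-5. The peak in nop-1 (NCU10055), which encodes an opsin, had 1.17 in WT DD and no peak in any other list. All 3 were weak in WT DD.

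Genes that the study discusses were also placed relative to the domains. NCU10058, NCU16377 and NCU10059 lie together on chromosome I in a gap between 2 long domains, and each held a bordering peak. The peak of NCU16377 had fold enrichments of 1.30 in Δkmt1/Δdim-5 DD, 1.21 in Δkmt1/Δdim-5 LP30, 1.31 in WT LP30 and 1.39 in WT DD. Its rank was 18.6 in Δkmt1/Δdim-5 DD and 16.5 in WT DD. The study reports less H3K4me3 and lower expression in Δkmt1/Δdim-5 at NCU10058, NCU10059 and NCU16377. A rank by summit fold enrichment is a different measure from its peak densities, and RNA was not used here. None of 8 clock, light and heterochromatin genes (frq, vvd, wc-1, wc-2, set-1, dim-5, hpo and dim-2) held a bordering peak. The blue-light receptor gene wc-1 was nearest, with its midpoint 26231 bp from a long domain, and the clock gene frq lay 201563 bp from one.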

How the data were processed

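Reads had been mapped by the authors to the NC12 build with BWA 0.7.10, and peaks called with macs2 at a p-value limit of 0.1, broad for H3K9me3 and narrow for H3K4me3, on both replicates pooled. The macs2 version is not given in the sources used here. The 8 deposited lists give peak positions, a score (10 times the −log10 q-value for H3K9me3 and the −log10 p-value for H3K4me3, as a whole number), the fold enrichment over the control (a ratio), −log10 p and −log10 q. These are the authors' values. The broad-peak values are means over the peak, and the narrow-peak values belong to the summit, whose offset is deposited as well. The lists hold no read totals, so the depth of a sample beyond the stated one is unknown. A mark may be present at a place without a peak.

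Peaks were compared by overlap of at least 1 bp with Python 3.11.15, numpy 2.4.6, scipy 1.17.1 and matplotlib 3.10.9. The displacement of an edge is the outermost end of the peaks of the other list that overlap the domain, minus the WT DD edge, and edges were counted on the 7 chromosomes. The ChIP and control pileups at a summit were solved from (k + 1)/(λ + 1), with the peak caller's pseudocount of 1, and the Poisson p. In the WT DD list 96.6% of the pileups came out within 0.02 of a whole number. The control value may come from a wider window than the summit. Gene spans came from the RefSeq annotation of NC12 and were matched by locus tag. The steps were tested on simulated lists with known answers.

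The bordering peaks and gene lists were chosen with earlier results of these data known. Genes named are those under or nearest the summit of the 10 most enriched bordering peaks, of the 10 most enriched without a peak in Δkmt1/Δdim-5 DD, of those crossed in Δkmt2/Δset-1 DD, of the 5 largest gains and 5 largest drops in rank, of the 5 edges with the largest outward displacement, of bordering peaks at genes the study names or in a list of 8 clock and heterochromatin genes, and at the limits of the rule. Other names are marked. Alternatives were summit distances of 2 and 10 kb, domains of at least 10 kb, a q-value under 0.01 in every list, joined H3K9me3 peaks, other overlaps, and bordering peaks defined in WT LP30. Domains with no overlapping peak were also counted as withdrawn. The comparison of base composition that had been planned was not run, as no genome sequence was used.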

Additional observations from a re-analysis of the deposited data

How the results depend on the processing

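No paired analysis was possible because each deposited list pools its replicates, and leaving out a replicate was not possible for the same reason, so no value has an error between replicates. Of 130 recomputed values, 105 stayed within the interval of the first value or within 1.5 times the first count. These include values that could not change. Counting domains with no overlapping H3K9me3 peak as withdrawn had no effect, as every long domain on the chromosomes had such a peak. The number of bordering peaks was 116 with a distance of 2 kb and 475 with 10 kb. The share missing from Δkmt1/Δdim-5 DD was then 25.9% at 2 kb and 12.8% at 10 kb, and that from Δkmt1/Δdim-5 LP30 24.1% and 11.2%. With an overlap of at least 50% of the WT DD peak, 22.7% were missing from Δkmt1/Δdim-5 LP30. Under these alternative settings, peaks farther away were missing from the Δkmt1/Δdim-5 lists in 3.04% to 4.53% of cases. With a q-value under 0.01 asked of WT DD only, 12.7% of bordering and 1.62% of farther peaks were missing from Δkmt1/Δdim-5 DD. From Δkmt1/Δdim-5 LP30, 11.3% and 1.69% were then missing. Near ends in Δkmt1/Δdim-5 DD had a median of -28 bp at 2 kb and -7 bp at 10 kb, and in Δkmt1/Δdim-5 LP30 -26.5 and 2 bp. Counting any base in place of the summit gave 7.56% in Δkmt2/Δset-1 DD, 7.98% in Δkmt2/Δset-1 LP30, 9.24% in WT LP30 and 8.82% in WT DD. The WT DD share was 0% with whole peaks, with domains of at least 10 kb and with a q-value under 0.01. Bordered edges moved by over 500 bp were 8.54% in Δkmt2/Δset-1 DD and 5.53% in Δkmt2/Δset-1 LP30. Those moved by over 2 kb were 1.51% in Δkmt2/Δset-1 DD, 0.503% in Δkmt2/Δset-1 LP30 and 0% in WT LP30. At 10 kb, 5.07% moved by over 1 kb in Δkmt2/Δset-1 LP30, and with a q-value under 0.01, 0% in WT LP30. The cause of these differences was not tested.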
